A study of Mus musculus with 4 samples.

Results

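A set of 10 genes of the CC chemokine system was examined in mouse distal colon: the ligands Ccl2, Ccl3, Ccl4, Ccl5, Ccl7, Ccl8, Ccl11 and Ccl20 and the receptors Ccr1 and Ccr2. They were chosen by name, as 8 CC chemokine ligands and 2 receptors carried by monocytes, with earlier results of these data known. All 10 were found among the 22422 genes of the table. In Elf4fl/fl-Villin-Cre colon, Ccl2, Ccl3, Ccl4, Ccl11, Ccr1 and Ccr2 rose in the limma test, by between 3.34-fold (Ccr2) and 9.30-fold (Ccl2). The other 4 members did not pass that test, but Ccl7 passed in edgeR and DESeq2 and Ccl8 in DESeq2. Ccl7 and Ccl8 were higher in both Elf4fl/fl-Villin-Cre libraries than in both wild-type libraries. The libraries of both genotypes overlapped for Ccl5 and Ccl20.

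The libraries were made from the distal colon of female mice of 6 weeks, taken after 5 days on 2% dextran sulfate sodium (DSS), a polymer that injures the colonic epithelium and causes colitis. Wild-type mice were compared with Elf4fl/fl-Villin-Cre mice, with 2 libraries per genotype, and no library from untreated mice was included. Villin-Cre expresses the Cre recombinase in intestinal epithelial cells, where it deletes the loxP-flanked Elf4, which encodes an ETS-family transcription factor, while the other cells of the colon keep the gene. The series gives C57BL/6 for all mice, but the labels of the deleted genotype have C57BL/8 as the strain. The labels do not say what alleles or Cre the wild-type mice carried, whether the genotypes were littermates, or whether replicates were separate animals, so p-values measure only the spread between these libraries, which may be technical.

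CC chemokines are small secreted proteins named for adjacent cysteines near the amino terminus, and they attract leukocytes through G protein-coupled receptors. Ccl2 and Ccl7 act on Ccr2, through which monocytes leave the bone marrow and enter inflamed tissue such as the colon. Ccl3 and Ccl5 act on Ccr1, Ccl4 attracts macrophages and T cells, Ccl11 (eotaxin) acts on Ccr3 of eosinophils, and Ccl20 acts on Ccr6 of lymphocytes and dendritic cells.

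The feature that names the family is printed here for the 8 member ligands, because it is what they share in sequence, whether or not their RNA passed the test. Each line gives 48 coding bases, 5′ to 3′, of the GENCODE transcript (mm10), with introns left out and the codons of the adjacent cysteines in capitals.
Ccl2: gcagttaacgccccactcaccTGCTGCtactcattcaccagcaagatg
Ccl7: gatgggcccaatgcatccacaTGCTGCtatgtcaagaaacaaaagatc
Ccl8: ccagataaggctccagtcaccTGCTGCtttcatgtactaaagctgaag
Ccl11: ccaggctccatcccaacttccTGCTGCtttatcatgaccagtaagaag
Ccl3: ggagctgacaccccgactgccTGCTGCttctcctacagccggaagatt
Ccl4: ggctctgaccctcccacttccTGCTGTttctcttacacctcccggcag
Ccl5: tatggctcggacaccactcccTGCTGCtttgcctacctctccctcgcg
Ccl20: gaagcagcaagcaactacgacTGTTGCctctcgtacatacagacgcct

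In all 8 ligands the cysteine pair lay in exon 2, and its first codon was number 32 to 34 of the coding sequence. Ccl2 had the longest coding sequence, 447 bases, against 276 to 294 bases in the other 7. Over the 28 pairs of ligands, aligned coding sequences were identical at 53.9% to 70.0% of bases, with Ccl3 and Ccl4 the closest pair. Despite this kinship, 9 of the 10 members shared no stretch of 50 bases with any other annotated gene. Ccr2 shared 129 of its 6758 stretches of 50 bases (1.91%) with other genes.

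Per the annotation, Ccl2, Ccl7, Ccl11 and Ccl8 lie in this order on chromosome 11 within one cluster, from base 82035571 to base 82116799 on the plus strand, with Ccl12 between Ccl11 and Ccl8. Ccl5 (chr11:83525778-83530518, minus strand), Ccl3 (chr11:83647844-83649355, minus strand) and Ccl4 (chr11:83662584-83664683, plus strand) form a further cluster on that chromosome. Ccl20 lies alone at chr1:83116766-83119167 on the plus strand. Ccr1 (chr9:123962124-123968692, minus strand) and Ccr2 (chr9:124101950-124113557, plus strand) are near neighbours on chromosome 9.

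Depth and scaling were as follows. The recovered reads per library came to between 15885028 and 16425954, and a normalised read is a read divided by 1 scaling factor per library. Elf4 itself read 1588 and 1938 in wild type against 897 and 758 in Elf4fl/fl-Villin-Cre colon (libraries 1 and 2), and fell by 1.09 ± 0.16 on the log2 scale (limma adjusted p = 0.0139). In the same libraries 11 of 13 colonic epithelium markers fell, with a median log2 fold change of -1.83, and the deletion and a lower epithelial content cannot be told apart in the Elf4 value. Of 22050 genes tested, 1512 were higher and 1897 lower in Elf4fl/fl-Villin-Cre colon, which became 4114 and 1194 when libraries were scaled by their totals and 1143 and 2684 when the median gene was set equal. The median log2 fold change of all genes was 0.11 as deposited, 0.41 with library totals, -0.04 with median scaling and 0.08 with TMM scaling. In the following, a fold change sets Elf4fl/fl-Villin-Cre against wild type, a log2 difference is one of log2(value + 1) and has its standard error, and adjusted p-values come from limma unless another tool is named.

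Of the 10 members, 6 were higher and 0 lower at an adjusted p under 0.05, where 6.86% of all genes tested were higher and 8.6% lower. With limma's p unadjusted, 8 were higher and 0 lower at 0.05, against 16.7% and 15.4% of all genes. EdgeR on the recovered reads called 7 higher, the added gene being Ccl7, and 0 lower, against 9.88% and 13.5%. DESeq2 called 8 higher and 0 lower, against 9.51% and 15.4%. In 8 members both Elf4fl/fl-Villin-Cre libraries lay above both wild-type libraries, as they did in 35.0% of all genes tested. The median log2 fold change was 1.75 over the members and 0.11 over all genes. These are bulk libraries, in which fewer cells of a type and less RNA per cell cannot be told apart.

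**Figure D1:**
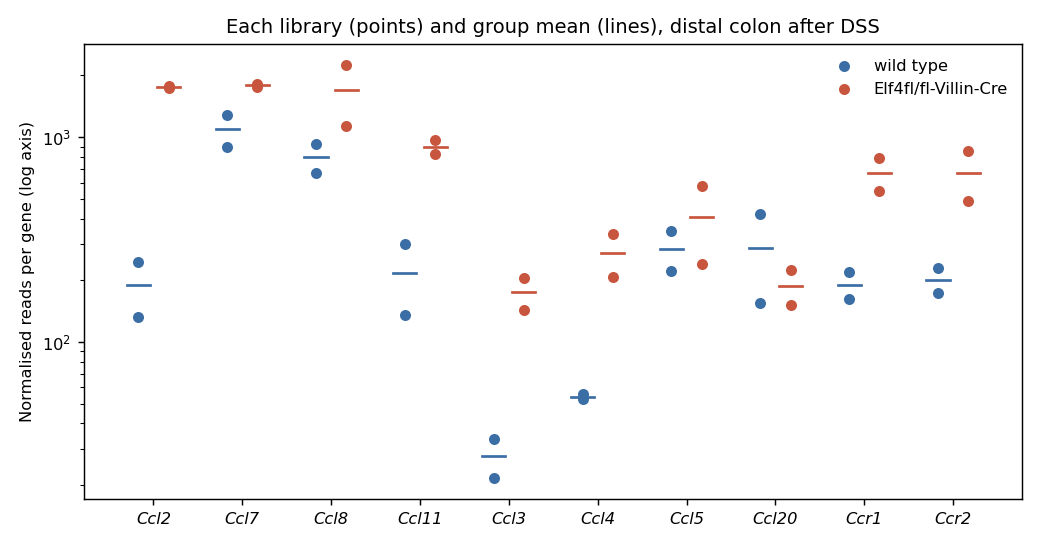
Normalised reads per gene (log axis) for the 10 members, with 1 point per library and a line at the mean of each genotype (blue, wild type; red, Elf4fl/fl-Villin-Cre; n = 2 libraries each). The points of both genotypes are apart for all members but Ccl5 and Ccl20.

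Ccl2, the main monocyte attractant among the Ccr2 ligands, showed the largest fold change of the 10 members. Its level was 245 and 133 normalised reads in wild-type libraries 1 and 2, against 1778 and 1732 in libraries 1 and 2 of Elf4fl/fl-Villin-Cre colon. The Elf4fl/fl-Villin-Cre libraries were nearly equal and far above both wild-type libraries, which themselves differed by 1.84-fold. The means were 189 ± 79.3 and 1755 ± 32.1 normalised reads (SD, n = 2 each), a 9.30-fold difference. Ccl2 rose by 3.28 ± 0.28 on the log2 scale (limma adjusted p = 0.00742, edgeR adjusted p = 0.0051). Leaving out any 1 library, the log2 difference was 2.84 to 3.71 and edgeR still called it in 4 of 4 fits (highest adjusted p = 0.0185).

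Ccl7, the neighbouring gene and also a Ccr2 ligand, stood above Ccl2 in every library per kilobase as well as in reads, except for library 1 of the deleted genotype, where reads were nearly equal. It read 1286 and 898 in wild type against 1766 and 1826 in both Elf4fl/fl-Villin-Cre libraries. No library of one genotype overlapped the other, but the gap was small beside that of Ccl2, with 1092 ± 275 against 1796 ± 42.8 normalised reads (SD, n = 2 each) and a 1.65-fold difference. The log2 difference of 0.74 ± 0.19 just missed the threshold in limma (adjusted p = 0.0516) and passed it in edgeR (adjusted p = 0.0414) and DESeq2 (adjusted p = 0.0186). In edgeR it passed in 1 of the 4 fits without 1 library, that without wild-type library 1.

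The ratio of Ccl2 to Ccl7, both without correction for length, was 0.190 and 0.148 in wild type against 1.01 and 0.949 in Elf4fl/fl-Villin-Cre colon. The pair thus went from a clear excess of Ccl7 reads to near equal read numbers. Between them and Ccl8 on the chromosome, Ccl12, a further mouse Ccr2 ligand, had 78.2 and 43.2 against 124 and 110 normalised reads, without overlap (log2 0.99 ± 0.33, limma adjusted p = 0.0953). Ccl1, the next CC ligand after Ccl8, had 1.03 and 4.22 against 11.4 and 2.51 normalised reads, with overlap. The difference between the genes' responses was not tested.

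Ccl8, which attracts monocytes and T cells and is the last of the members in the cluster, read 926 and 671 in wild type against 2259 and 1135 in Elf4fl/fl-Villin-Cre colon. Library 1 of the Elf4fl/fl-Villin-Cre pair stood well above the other 3, and library 2 only modestly above the higher wild-type library. The means were 799 ± 180 and 1697 ± 795 normalised reads (SD, n = 2 each). The log2 difference of 1.02 ± 0.34 did not pass in limma (adjusted p = 0.0948) or edgeR (adjusted p = 0.0675) and passed in DESeq2 (adjusted p = 0.0125). Without Elf4fl/fl-Villin-Cre library 1 it was 0.46 in edgeR, and without library 2 it was 1.46 and passed (edgeR adjusted p = 0.00153).

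Ccl11, the eosinophil attractant eotaxin, read 299 and 135 in wild type against 965 and 829 in both Elf4fl/fl-Villin-Cre libraries. Both Elf4fl/fl-Villin-Cre libraries were high and alike, and wild-type library 2 was the lowest. With means of 217 ± 116 and 897 ± 96.5 normalised reads (SD, n = 2 each), Ccl11 rose 4.13-fold (log2 2.15 ± 0.36, limma adjusted p = 0.0176, edgeR adjusted p = 0.0129). The wild-type libraries differed by 2.22-fold, and the log2 difference was 1.58 without wild-type library 2 and 2.72 without wild-type library 1. EdgeR called it in 4 of 4 fits without 1 library.

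The receptor of Ccl11, Ccr3, was close to the detection limit, with 1.03 and 0 normalised reads in wild type against 4.07 and 4.18 in Elf4fl/fl-Villin-Cre colon, which is at most 5 reads per library. Of 5 eosinophil markers tested, Ccr3 among them, 0 passed in limma, edgeR or DESeq2 in either direction. At an unadjusted p under 0.05, 1 was higher in limma, which was Ccr3 itself, and 0 in edgeR, which Ccr3 was too low to enter. The summed eosinophil list was 587 to 738 normalised reads in wild type and 724 to 763 in Elf4fl/fl-Villin-Cre colon. Most of that sum was Il5ra, and 3 of the 8 listed markers were not in the table under their symbol.

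Ccl3 (MIP-1 alpha), a ligand of Ccr1, read 21.6 and 33.7 in wild type against 143 and 206 in Elf4fl/fl-Villin-Cre colon, which rest on 21, 32, 176 and 246 recovered reads. Both Elf4fl/fl-Villin-Cre libraries were several times above both wild-type libraries. Ccl3 rose 6.31-fold, from 27.7 ± 8.57 to 175 ± 44.1 normalised reads (SD, n = 2 each; log2 2.62 ± 0.33, limma adjusted p = 0.0105, edgeR adjusted p = 0.00726).

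Ccl4 (MIP-1 beta), its neighbour and an attractant of macrophages and T cells, had 52.5 and 55.9 normalised reads in wild type against 208 and 337 in Elf4fl/fl-Villin-Cre colon. The wild-type libraries were alike, and Elf4fl/fl-Villin-Cre library 2 was the highest, as it was for Ccl3. Ccl4 rose 5.03-fold, from 54.2 ± 2.39 to 272 ± 91.4 normalised reads (SD, n = 2 each; log2 2.27 ± 0.28, limma adjusted p = 0.0101, edgeR adjusted p = 0.00722). For both Ccl3 and Ccl4, edgeR made the call in 4 of 4 fits without 1 library, with highest adjusted p-values of 0.0332 and 0.0414.

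Ccl5 (RANTES), which T and NK cells make and which also acts on Ccr1, read 349 and 221 in wild type against 579 and 240 in Elf4fl/fl-Villin-Cre colon. Elf4fl/fl-Villin-Cre library 1 was the highest, while library 2 lay between the wild-type libraries, so the genotypes overlapped. The log2 difference was 0.42 ± 0.43 (limma adjusted p = 0.548, edgeR adjusted p = 0.426). It was -0.21 without Elf4fl/fl-Villin-Cre library 1 and 1.06 without library 2, a fit in which edgeR called it (0.99, adjusted p = 0.0244), so its direction rests on a single library.

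Of 14 T and NK cell markers, 0 passed in limma, edgeR or DESeq2 (2 were higher at an unadjusted p under 0.05 in limma and 2 in edgeR), and their summed level was 1232 to 2240 normalised reads in wild type and 1594 to 2366 in Elf4fl/fl-Villin-Cre colon. The lower library of each genotype in that sum was library 2, which was also the lower one for Ccl5. The part of these cells in the Ccl5 values was not tested.

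Ccl20, an epithelial chemokine that attracts Ccr6-bearing lymphocytes and dendritic cells, read 154 and 419 in wild type against 224 and 152 in Elf4fl/fl-Villin-Cre colon. Wild-type library 2 stood above the other 3 libraries, which lay together. The means were 287 ± 187 and 188 ± 50.8 normalised reads (SD, n = 2 each), and the log2 difference was -0.46 ± 0.47 (limma adjusted p = 0.545, edgeR adjusted p = 0.355). Without wild-type library 2 the log2 difference was 0.26, and without wild-type library 1 it was -1.18 (-1.20 and adjusted p = 0.0495 in edgeR). Its receptor Ccr6 had 17.5 and 8.43 normalised reads in wild type against 59.5 and 20.9 in Elf4fl/fl-Villin-Cre colon, without overlap but not past the test (limma adjusted p = 0.166).

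Ccl20 is the member ligand most tied to epithelium, of whose 13 markers 11 fell (0 rose in limma, edgeR or DESeq2, and 0 at an unadjusted p under 0.05). Their summed level was 371140 and 421195 normalised reads in wild type (libraries 1 and 2) against 127315 and 169791 in Elf4fl/fl-Villin-Cre colon. Wild-type library 2 was the highest in this sum as it was in Ccl20, but the remaining libraries fell in another order. Wild-type library 1 was far above both Elf4fl/fl-Villin-Cre libraries in the sum, while its Ccl20 was 154 normalised reads against their 224 and 152. The part of epithelial content in the Ccl20 values was not tested.

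Ccr1, a receptor of Ccl3 and Ccl5 on monocytes, macrophages and neutrophils, read 219 and 161 in wild type against 788 and 548 in Elf4fl/fl-Villin-Cre colon. The genotypes were well apart, and library 1 was the higher one in each. Ccr1 rose 3.51-fold, from 190 ± 41.0 to 668 ± 170 normalised reads (SD, n = 2 each; log2 1.80 ± 0.24, limma adjusted p = 0.0116, edgeR adjusted p = 0.00834). EdgeR called it in 4 of 4 fits without 1 library (highest adjusted p = 0.0453).

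Ccr2, the Ccl2 and Ccl7 receptor that marks inflammatory monocytes, read 229 and 173 in wild type against 856 and 487 in Elf4fl/fl-Villin-Cre colon. Its libraries fell in the same order as those of Ccr1 and did not overlap between genotypes. Ccr2 rose 3.34-fold, from 201 ± 40.0 to 671 ± 261 normalised reads (SD, n = 2 each; log2 1.69 ± 0.30, limma adjusted p = 0.019, edgeR adjusted p = 0.0138). The call was lost in edgeR without wild-type library 2 (1.53, adjusted p = 0.0772) and kept in the other 3 fits.

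Most markers of the cells that carry these receptors rose too. Of 16 monocyte and macrophage markers, 13 rose and 0 fell in limma (0 fell at an unadjusted p under 0.05, and in edgeR and DESeq2), with a median log2 fold change of 0.93, and 7 rose with median scaling and 7 without a filter on low values. Ly6c2 (log2 -0.13, limma adjusted p = 0.857) and Mertk (log2 -0.37, limma adjusted p = 0.386) were among the 3 that did not pass. EdgeR called 13 higher with all libraries, 4 without wild-type library 2, 6 without Elf4fl/fl-Villin-Cre library 1 and 8 without wild-type library 1. Their summed level was 15015 to 19049 normalised reads in wild type and 29236 to 41156 in Elf4fl/fl-Villin-Cre colon, and no defining marker of the list was at 0. Lyz2 was the largest part of this sum in each library, with 5064 and 4094 in wild type against 18002 and 9419 in Elf4fl/fl-Villin-Cre colon. F13a1, a coagulation factor subunit of monocytes, rose by 2.06, the lipopolysaccharide co-receptor Cd14 by 1.37 and the haemoglobin scavenger receptor Cd163 by 1.61 as log2 values (limma adjusted p = 0.00636, 0.0089 and 0.00986).

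Neither receptor is in that list. The ratio of Ccr2 to the list's summed level, as a percent, was 1.20% and 1.15% in wild type against 2.08% and 1.66% in Elf4fl/fl-Villin-Cre colon, and that of Ccr1 was 1.15% and 1.07% against 1.92% and 1.87%. Ccr2 per normalised read of Csf1r, the growth factor receptor of macrophages, was 0.191 and 0.187 in wild type against 0.393 and 0.295 in Elf4fl/fl-Villin-Cre colon. The same ratio for Ccr1 was 0.182 and 0.174 against 0.362 and 0.332. Against F13a1 the genotypes overlapped, with 1.30 and 1.06 in wild type against 1.16 and 0.712 in Elf4fl/fl-Villin-Cre colon for Ccr2, and 1.25 and 0.994 against 1.07 and 0.802 for Ccr1. Over the 16 markers taken one by one, the ratio was higher in both Elf4fl/fl-Villin-Cre libraries for 14 with Ccr1 and for 12 with Ccr2, and it overlapped for the other 2 and 4. The counts include Ly6c2 and Mertk, which did not rise, and ratios barely apart. Ccr1 over Lyz2, for example, was 0.0433 and 0.0394 in wild type against 0.0438 and 0.0581 in Elf4fl/fl-Villin-Cre colon. These ratios share their numerator and describe 2 libraries per genotype without a test.

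Ccr1 is also carried by neutrophils, and 8 of 12 neutrophil markers rose, with 0 lower in limma (0 also at an unadjusted p under 0.05) and edgeR, 1 lower in DESeq2, and a median log2 fold change of 3.27. Their summed level, most of it Ly6g, was 14352 to 14672 normalised reads in wild type and 16928 to 18553 in Elf4fl/fl-Villin-Cre colon. Ly6g went against the 8 that rose, with 12663 and 13520 in wild type against 9105 and 10787 in Elf4fl/fl-Villin-Cre colon. It was the marker lower in DESeq2 (limma adjusted p = 0.168), so the sum does not show the change of the other markers. The granule genes Camp and Ngp were at 0 in at least 1 library. Ligands of the Ccl2 cluster are also made by stromal cells, and 3 of 9 fibroblast markers (summed level 39080 to 48675 against 77404 to 82260) and 2 of 7 endothelial markers (2138 to 2961 against 3982 to 4497) rose, none of them at 0. In edgeR 1 fibroblast and 0 endothelial markers were called without wild-type library 2. Haemoglobin and other red cell genes had 4 of 7 higher, with a summed level of 246 to 702 against 2429 to 2827 normalised reads. Of the other lists, 1 of 8 B and plasma cell markers rose, and 2 of 8 mast cell markers and 1 of 6 smooth muscle markers fell. Of 8 markers of follicle-associated epithelium and M cells, 3 rose and 1 fell. Among the 3 was Ccl9, which is counted again below with the other CC ligands. The part of changed cell content, blood included, in the member values was not tested.

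**Figure D2:**
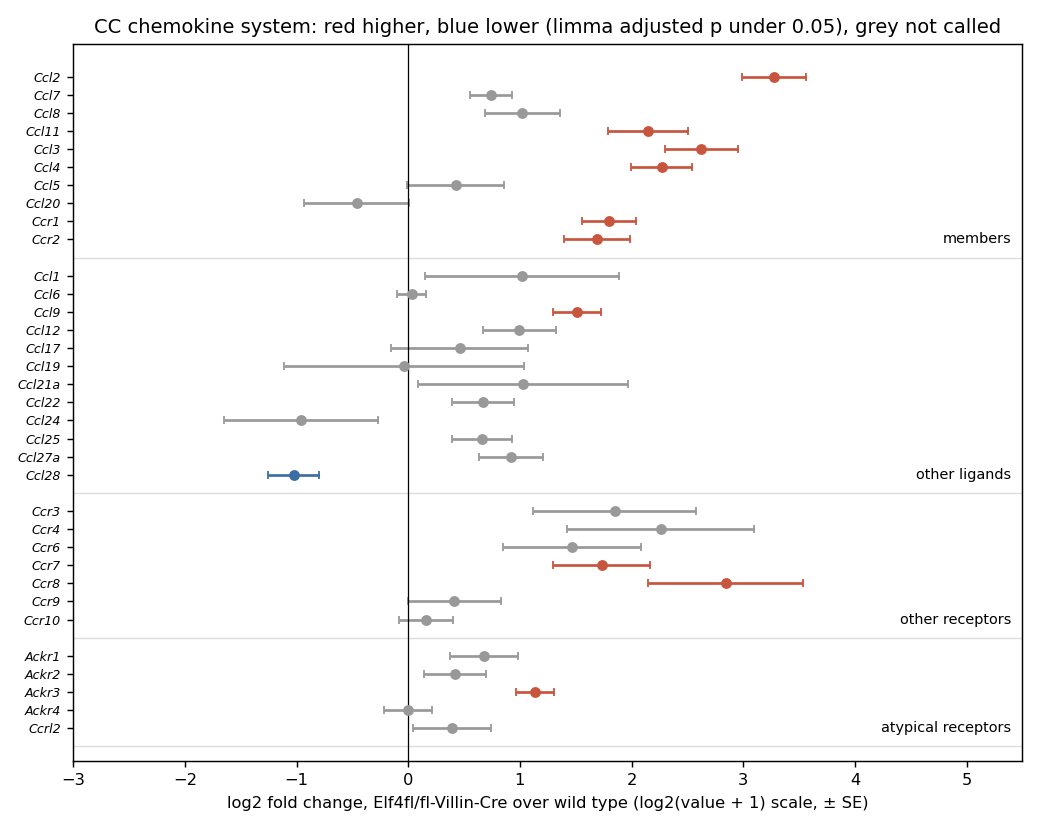
Log2 difference between genotypes, from log2(value + 1) and above 0 where Elf4fl/fl-Villin-Cre was higher, with its standard error for the members and the other CC ligands, receptors and atypical receptors reported here. Red points (higher) and blue points (lower) passed the limma test and grey points did not. Ccl2, at 3.28, is the highest of the ligands, and Ccl28 lies on the other side of 0 at -1.03.

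Of 12 other CC ligands tested, 1 rose and 1 fell, with a median log2 fold change of 0.67. Ccl9, a Ccr1 ligand of myeloid cells and follicle-associated epithelium, had 487 and 355 normalised reads in wild type against 1360 and 1038 in Elf4fl/fl-Villin-Cre colon and rose 2.85-fold (log2 1.51 ± 0.21, limma adjusted p = 0.0127). Ccl28, a mucosal epithelial chemokine for plasma cells, had 1202 and 1439 against 519 and 802 and fell by 1.03 ± 0.23 on the log2 scale (limma adjusted p = 0.0346). In edgeR the Ccl28 call was lost without Elf4fl/fl-Villin-Cre library 1 (adjusted p = 0.0502) and without wild-type library 2 (adjusted p = 0.102).

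Ccl6, a further Ccr1 ligand of myeloid cells, was nearly equal in the 4 libraries. It read 4755 and 4529 in wild type against 4733 and 4741 in Elf4fl/fl-Villin-Cre colon (log2 0.03 ± 0.13, limma adjusted p = 0.901). Its neighbour Ccl9 and its cluster mates Ccl3 and Ccl4 thus rose where Ccl6 did not pass the test, but the difference between the genes was not tested.

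Of 8 other CC receptors, 3 rose and 0 fell (0 also at an unadjusted p under 0.05, in edgeR and in DESeq2), with a median log2 fold change of 1.64. Ccr7, which guides dendritic cells and lymphocytes to lymph nodes, had 150 and 59.0 normalised reads in wild type against 364 and 274 in Elf4fl/fl-Villin-Cre colon (log2 1.73 ± 0.43, limma adjusted p = 0.0473). In edgeR the Ccr7 call was lost without Elf4fl/fl-Villin-Cre library 1 (adjusted p = 0.0622) and without wild-type library 2 (adjusted p = 0.076). Ccr8, a receptor of T cell subsets, passed in limma (adjusted p = 0.044) on at most 14 reads per library, with 0 and 1.05 normalised reads in wild type against 11.4 and 7.53 in Elf4fl/fl-Villin-Cre colon, and was too low to enter edgeR.

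Among 5 atypical receptors, which bind chemokines without classical signalling, Ackr3 rose by 1.14 ± 0.17 on the log2 scale (limma adjusted p = 0.0142). Of 14 genes of leukocyte adhesion and the CX3C axis, 6 rose and 1 fell. The integrin subunit Itgam rose by 1.83 ± 0.24 as log2 values (limma adjusted p = 0.0115). Cx3cl1, the membrane-bound chemokine of epithelium and endothelium, fell by 1.14 on that scale (limma adjusted p = 0.00986), from 1936 and 2199 to 889 and 986 normalised reads. EdgeR called Ackr3, Itgam and Cx3cl1 in each of the 4 fits without 1 library.

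Of 12 genes that carry the signal of chemokine receptors, 3 rose and 1 fell, with a median log2 fold change of 0.01. Rgs1, which shortens receptor signalling in leukocytes, rose by 1.64 on the log2 scale (limma adjusted p = 0.0108), the leukocyte kinase subunit Pik3cg by 0.96 (adjusted p = 0.0252) and the arrestin Arrb2 by 0.98 (adjusted p = 0.0369). Gnb1, a G protein subunit of nearly all cells, fell by 0.60 on that scale (limma adjusted p = 0.0398). Pik3cg and Arrb2 lost the edgeR call without Elf4fl/fl-Villin-Cre library 1 (adjusted p = 0.07 and 0.0817) and without wild-type library 2 (adjusted p = 0.0834 and 0.124), and Gnb1 in each fit without 1 library (adjusted p of 0.0626 to 0.167). Over all 51 pathway genes outside the members that were tested, 14 rose and 3 fell, against 6.86% and 8.6% of all genes tested, and their median log2 fold change was 0.75.

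Levels can be compared between genes only per length, so normalised reads were divided by exon length in kilobases. This length covers the exons of all annotated transcripts of a gene. It may exceed that of the transcript expressed, so a level may read too low and the order and shares depend on it. On that scale Ccl8 and Ccl7 were the highest members in both genotypes. In wild type the per-kilobase order was Ccl8 (1314 to 1812), Ccl7 (1121 to 1606), Ccl5 (231 to 363), Ccl20 (109 to 295), Ccl11 (125 to 277), Ccl2 (117 to 215), Ccl4 (79.5 to 84.6), Ccr1 (56.9 to 77.4), Ccl3 (28.2 to 44.0) and Ccr2 (25.6 to 33.9). The ranges of Ccl8 and Ccl7, those of neighbours from Ccl5 to Ccl2, and those of Ccl3 and Ccr2 overlapped, so neighbours there did not differ beyond their spread.

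In Elf4fl/fl-Villin-Cre colon the per-kilobase order was Ccl8 (2222 to 4421), Ccl7 (2204 to 2280), Ccl2 (1522 to 1562), Ccl11 (766 to 892), Ccl5 (250 to 603), Ccl4 (315 to 511), Ccr1 (193 to 278), Ccl3 (187 to 269), Ccl20 (107 to 158) and Ccr2 (72.0 to 127). Ccl2 thus stood in place 3 where it had stood in place 6, and Ccl20 in place 9 where it had stood in place 4. Neighbours overlapped between Ccl8 and Ccl7, Ccl5 and Ccl4, Ccr1 and Ccl3, and Ccl20 and Ccr2.

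The summed per-kilobase level of the 8 member ligands was 4489 and 3330 in wild type against 10342 and 7926 in Elf4fl/fl-Villin-Cre colon. Ccl2 took 4.79% and 3.50% of this sum in wild type against 15.1% and 19.2% in Elf4fl/fl-Villin-Cre colon. Ccl7 took 35.8% and 33.7% against 21.3% and 28.8%, and Ccl8 40.4% and 39.5% against 42.8% and 28.0%. The makeup of the ligands differed most in the Ccl2 share, which was higher in both Elf4fl/fl-Villin-Cre libraries, and the Ccl7 share, which was lower in both. Ccl5 took 8.09% and 6.92% against 5.83% and 3.15%, and Ccl20 2.42% and 8.86% against 1.52% and 1.35%. Shares add up to the whole, so one gene's rise lowers the others' shares.

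**Figure D3:**
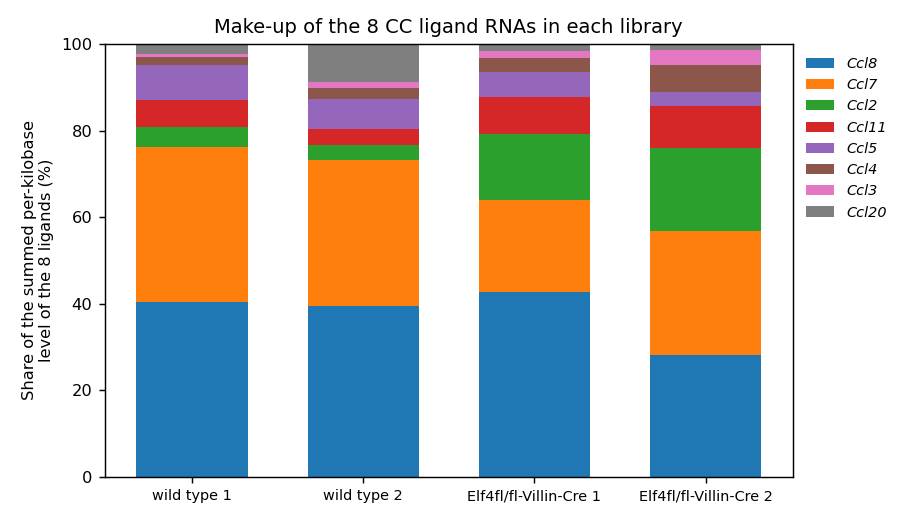
Share of each member ligand in the summed per-kilobase level of the 8 member ligands (percent), 1 stacked bar per library. The Ccl2 share is 3.50% to 4.79% in the wild-type libraries and 15.1% to 19.2% in those of Elf4fl/fl-Villin-Cre colon.

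The likeness of the genes' patterns was measured as the root mean square difference of log2(value + 1) over the 4 libraries, after centring each gene, among 30 CC ligands and receptors. Ccr1 and Ccr2 were the closest pair of members (0.12 log2 units), and the CC gene outside the members nearest to both was Ccl9 (0.15 and 0.18). Ccl3 was closest to Ccl4 (0.27). Ccl2 had no near match, its closest member being Ccl11 (0.58), and Ccl11 itself was closest to the scarcely detected Ccr3 (0.18). Ccl7 and Ccl8 were nearest to Ccl27a (0.16 and 0.24). Ccl5 was nearest to Ccr9 (0.32) and, among members, to Ccl8 (0.32), and Ccl20 was far from all members (0.90 from Ccl5). All genes share the same 4 libraries and their depth, so these distances describe the table and carry no test.

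**Figure D4:**
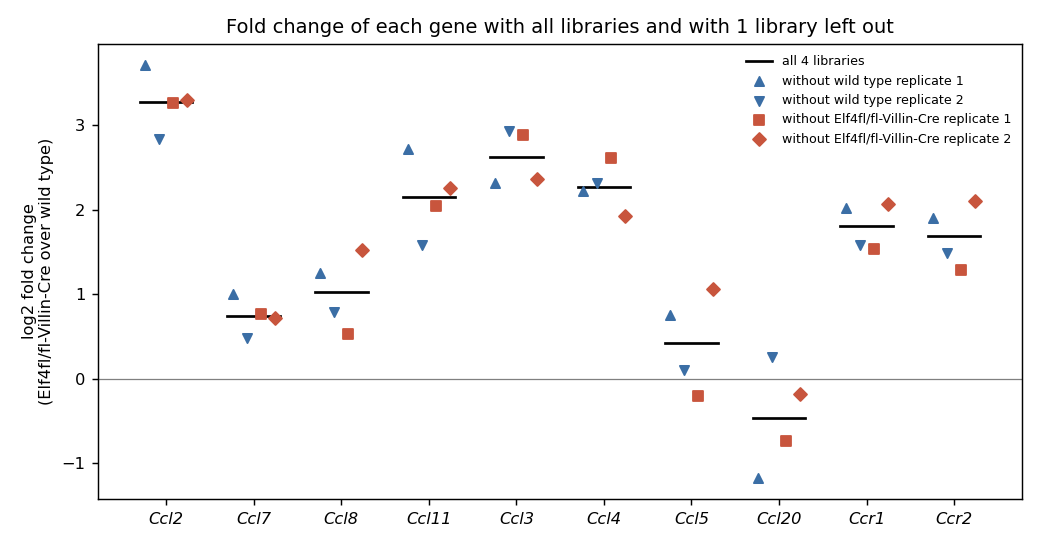
Log2 difference of each member, above 0 where Elf4fl/fl-Villin-Cre was higher, from limma with all 4 libraries and with each library left out in turn. Ccl2 stays between 2.84 and 3.71, while Ccl5 (-0.21 to 1.06) and Ccl20 (-1.18 to 0.26) lie on both sides of 0.

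Library 1 was often the higher one of its genotype. In both genotypes 7 of the 10 members were higher in library 1 than in library 2. The widest gap within wild type was that of Ccl20 (2.72-fold, library 2 higher), and the widest within Elf4fl/fl-Villin-Cre colon was that of Ccl5 (2.41-fold, library 1 higher). Ccl2 and Ccl7 were the steadiest members in Elf4fl/fl-Villin-Cre colon (1.03-fold each), and Ccl4 was the steadiest in wild type (1.06-fold).

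Sequences upstream of the start were matched in RefSeq (GRCm38.p6) for 5 of the 10 members: Ccl3, Ccl8, Ccl20, Ccr1 and Ccr2. Ccl2, Ccl4, Ccl5, Ccl7 and Ccl11 were not matched. The 250 bases before the start were searched on both strands for NF-kappa-B (GGG, 5 bases of any kind, CC), AP-1 (TGANTCA), the interferon-stimulated response element (GAAA, 2 bases of any kind, GAAA) and an ETS core (GGAAGT, the kind of site the family of Elf4 binds). The windows with a match are shown, of which those of Ccr1 and Ccl3 belong to members that rose and that of Ccl20 to one that did not pass the test. The lines run 5′ to 3′ on the gene's strand with the matches in capitals.
Ccl20, chr1:83116607-83116706, plus strand, 159 to 60 bases before the start: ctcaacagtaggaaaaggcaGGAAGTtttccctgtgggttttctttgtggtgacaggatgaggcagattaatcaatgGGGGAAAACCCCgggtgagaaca
Ccr1, chr9:123968693-123968786, minus strand, 94 to 1 bases before the start: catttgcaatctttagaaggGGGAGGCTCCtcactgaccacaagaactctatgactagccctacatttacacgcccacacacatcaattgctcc
Ccl3, chr11:83649508-83649607, minus strand, 229 to 130 bases before the start: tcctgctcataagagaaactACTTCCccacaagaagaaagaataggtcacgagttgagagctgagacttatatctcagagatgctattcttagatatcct

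In Ccl20 the ETS core lay 139 to 134 bases before the start, and overlapping NF-kappa-B matches on both strands lay 82 to 71 bases before it. Ccr1 held 1 NF-kappa-B match 74 to 65 bases before the start, and Ccl3 held an ETS core on the opposite strand 209 to 204 bases before it. The windows of Ccl8 and Ccr2 held none of the 4 motifs, and no AP-1 or interferon-stimulated response element match was found in the 5 windows. Of 32851 mouse windows of the same length, 45.8% held the NF-kappa-B letters, 19.7% the ETS core, 6.75% AP-1 and 2.98% the interferon-stimulated response element. With 2 of 5 member windows holding the NF-kappa-B letters and 2 of 5 the ETS core, these matches are a description of the letters only.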

How the data were processed

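Bulk RNA of distal colon, extracted with Trizol per the labels' protocols, was sequenced in 2 libraries per genotype. The authors deposited 1 normalised signal value per gene and library. Each deposited value divided by the smallest in its library gave a whole number (100% within a tolerance of 0.01), so whole reads were recovered, 1 read being worth 1.03 and 1.05 (wild type) or 0.814 and 0.836 (Elf4fl/fl-Villin-Cre). The submitters' processing notes name mm10. Which aligner, counter, strand setting and scaling tool were used is not given in the sources. GENCODE mouse release 21 supplied symbols and positions and matched 22376 of 22422 identifiers (99.8%).

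Values were tested as log2(value + 1) in limma 3.58.1 (R 4.3.3) with a variance trend, two-sided, over the 22050 genes with a mean of at least 1, with Benjamini-Hochberg adjustment at 0.05 over all of them. The fit had 2 residual and 4.06 prior degrees of freedom. EdgeR 4.0.16 (quasi-likelihood, TMM) and DESeq2 1.42.0 on the recovered reads, other pseudocounts, filters and scalings, the replicate number as a block and leaving out each library were alternatives. The plan had named edgeR as the main test if the values were whole counts. The deposited values were scaled, but whole reads were recovered from them, and limma was kept. If recovered reads are taken as counts, this departs from the plan. EdgeR called 7 members higher and limma 6. The scripts were tested on simulated data.

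The named genes are the 10 members, Elf4, up to 3 genes per list past the threshold by smallest p (up to 2 by level where none passed), genes between members in their chemokine clusters, and the closest genes by pattern. Further genes are named as receptors of member ligands, or, like Gnb1, Csf1r, Ly6g, Ly6c2 and Mertk, after their values were seen. Some genes of the lists were counted but are not reported here by name. Members and lists were chosen with earlier results of these data known. Coding identity and cysteine codons were computed with Biopython 1.88.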

Additional observations from a re-analysis of the deposited data

How the results depend on the processing

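The 6 calls among the members were present in each setting with all 4 libraries except limma without a variance trend, which called 0 members and 0 genes in either direction over the table, and 0 and 0 of the other CC system genes (Ccl2 3.28, Ccl3 2.62, Ccl4 2.27, Ccl11 2.15, Ccr1 1.80 and Ccr2 1.69 unchanged in size). Ccl7 passed in edgeR (0.69), DESeq2 (0.66), with a pseudocount of 5 (0.74) and with a minimum mean of 10 (0.74), and Ccl8 in DESeq2 (1.03). Library totals gave 4114 higher and 1194 lower genes, 22 and 1 of the other CC system genes, and called Ccl7 (1.06) and Ccl8 (1.34). Without a filter on low values 9 of the other CC system genes were higher and 1 lower.

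Replicate numbers are shared by the genotypes, but 2 pairs with a correlation of 0.10 of their differences do not show that they pair the samples. With the replicate block 8 members were higher, Ccl7 (0.74) and Ccl8 (1.02) included, 2066 genes were higher and 2445 lower, and 22 of the other CC system genes were higher.

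Leaving out each library, limma had 1 residual degree of freedom and called 0 genes, so the lower ends of the counts say nothing on stability. Over limma and edgeR the members higher numbered 0 to 8 and lower 0 to 1, all genes higher 0 to 1563 and lower 0 to 2191, and other CC system genes higher 0 to 18 and lower 0 to 2. In edgeR alone the numbers of members and of all genes called higher both varied with the library left out. Both were lowest without wild-type library 2, so the member numbers cannot be read apart from those of all genes. The log2 differences ranged from 2.82 to 3.71 for Ccl2, 2.31 to 2.98 for Ccl3, 1.90 to 2.62 for Ccl4, -0.29 to 1.06 for Ccl5, 0.46 to 0.9992 for Ccl7, 0.46 to 1.52 for Ccl8, 1.56 to 2.72 for Ccl11, -1.20 to 0.26 for Ccl20, 1.48 to 2.06 for Ccr1 and 1.23 to 2.10 for Ccr2. Ccl5 reversed without Elf4fl/fl-Villin-Cre library 1 (-0.21 in limma, -0.29 in edgeR) and Ccl20 without wild-type library 2 (0.26 in both); the cause was not tested. With 2 libraries per genotype, differences such as those of Ccl5 and Ccl20 were not detectable beyond the spread, and Ccr3 and Ccr8 are limited by depth.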

Other observations

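Ly6c2, the surface marker of the blood monocytes that carry Ccr2, did not follow the receptor. It had 2927 and 1247 normalised reads in wild type against 1373 and 2207 in Elf4fl/fl-Villin-Cre colon. The genotypes overlapped (log2 -0.13 ± 0.42, limma adjusted p = 0.857), where Ccr2 rose by 1.69 ± 0.30 on the log2 scale (limma adjusted p = 0.019). Ly6 genes have close paralogs whose reads the counting could split, so the values of Ly6c2 and of the neutrophil marker Ly6g are uncertain. The difference between Ly6c2 and Ccr2 was not tested.

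The ratio of Ccl5 to the T cell gene Cd3e was 3.90 and 4.67 in wild type against 5.35 and 2.71 in Elf4fl/fl-Villin-Cre colon, and the genotypes overlapped in it. The ratio of Ccl3 to its neighbour Ccl4 was 0.412 and 0.604 in wild type against 0.690 and 0.610 in Elf4fl/fl-Villin-Cre colon. Ccl3 was thus the smaller of the pair in reads in all 4 libraries.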
